A study of Mus musculus with 10 samples.

Results

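Expression of 33 genes for the synthesis, uptake, transport, storage and efflux of cholesterol was examined in brown adipose tissue (BAT) of mice with and without STAT5 in adipocytes. The genes were a list fixed by symbol, and all 33 were found among the 24454 genes counted and the 13568 genes tested. BAT was taken from 2-month-old male C57BL/6N mice fed ad libitum, with 5 control and 5 Stat5Adipoq mice and 1 RNA-Seq library per mouse. Samples of both genotypes are labelled basal, and the methods name no cold exposure or drug treatment for the RNA-Seq samples. Stat5Adipoq mice lack Stat5a and Stat5b in adipocytes through a Cre recombinase driven by the adiponectin (Adipoq) promoter. The controls are labelled wild type and are, per the methods, Cre-negative littermates that carry the same floxed Stat5 alleles, so no group carried Cre without floxed alleles. The Cre acts in white as well as brown adipocytes, and other cells of BAT keep STAT5.

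Cells make cholesterol from acetyl-CoA through mevalonate, farnesyl diphosphate, squalene and lanosterol, and they also take it up from lipoproteins. When sterols in the endoplasmic reticulum are low, SCAP carries the transcription factor SREBP2 to the Golgi, where it is cleaved and released to switch on genes of synthesis and uptake, and the INSIG proteins hold it back when sterols are plentiful. The liver X receptors (LXR) respond to oxysterols, which accumulate with cholesterol, and switch on genes of efflux and of phospholipid remodelling. BAT is better known for burning fatty acids than for sterol synthesis, and its adipocytes draw cholesterol from circulating lipoproteins.

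Libraries held 8488129 to 19514904 counts on genes. Expression is given as CPM, the counts of a gene per fixed total of counts, with totals scaled between libraries by TMM (trimmed mean of M values), and a gene was called where edgeR's quasi-likelihood test gave an adjusted p below 0.05. Stat5a ran from 86.9 to 130.4 CPM in control and from 15.8 to 20.7 CPM in Stat5Adipoq BAT, and Stat5b from 76.6 to 91.9 CPM and from 21.0 to 22.9 CPM, so every library matched its label. The 8 brown adipocyte markers, Ucp1 and Adipoq among them, summed to 17540 to 28630 CPM in control and 19390 to 24740 CPM in Stat5Adipoq libraries. Of these markers 5 had a fold change below 0 and 3 above, from -1.07 to 0.38 on the log2 scale. At an unadjusted p under 0.05, 1 of them was lower and 0 higher, with 0 called by edgeR or DESeq2. Control replicate 3 stood apart with 3633 CPM of skeletal muscle markers and 90.1 CPM of liver markers, against at most 265 CPM and 4.49 CPM elsewhere. All 8 muscle markers were lower in Stat5Adipoq BAT at an unadjusted p under 0.05, with 0 called by edgeR and 3 by DESeq2, and all 7 tested liver markers had a fold change below 0, with 0 called. Schwann cell markers summed to 135 to 534 CPM in control and 123 to 233 CPM in Stat5Adipoq BAT, and 7 of the 8 were lower at an unadjusted p under 0.05 with 0 called by edgeR and 1 by DESeq2. The summed levels of macrophage (138 to 178 and 117 to 149 CPM), endothelial (839 to 1053 and 875 to 1080 CPM) and fibroblast markers (905 to 1703 and 882 to 1683 CPM) overlapped between the genotypes, with 0 of 24 called. No marker of these lists was at 0 in every library.

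In Stat5Adipoq BAT, 5 of the 33 cholesterol genes fell and 0 rose. They were Npc2, the cholesterol-binding protein of the lysosome lumen, the synthesis enzymes Acat2, Pmvk and Ebp, and the phospholipid acyltransferase Lpcat3. The levels that remained ran from 64.6% of control for Npc2 to 83.0% for Lpcat3. Among all tested genes, 1.31% were called lower and 1.4% higher. DESeq2 called 7 members lower, adding Sqle and Scarb1 to the same 5, and 0 higher, where it called 2.46% of all genes lower and 2.4% higher. At an unadjusted p under 0.05, 12 members were lower and 0 higher, beside 8.03% and 7.18% of all genes. All control libraries lay above all Stat5Adipoq libraries for 6 members, the 5 called genes and Tm7sf2, and for 0 members below them, while 2.04% of all genes were separated in that way towards lower and 2.35% towards higher values. Of the 33 fold changes, 26 were below 0, with a median log2 fold change of -0.11 (Stat5Adipoq over control) against -0.0028 over all tested genes. Over all 13568 tested genes, 6889 fold changes were below 0. In whole tissue, fewer cells of a type and less RNA per cell cannot be told apart.

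**Figure D1:**
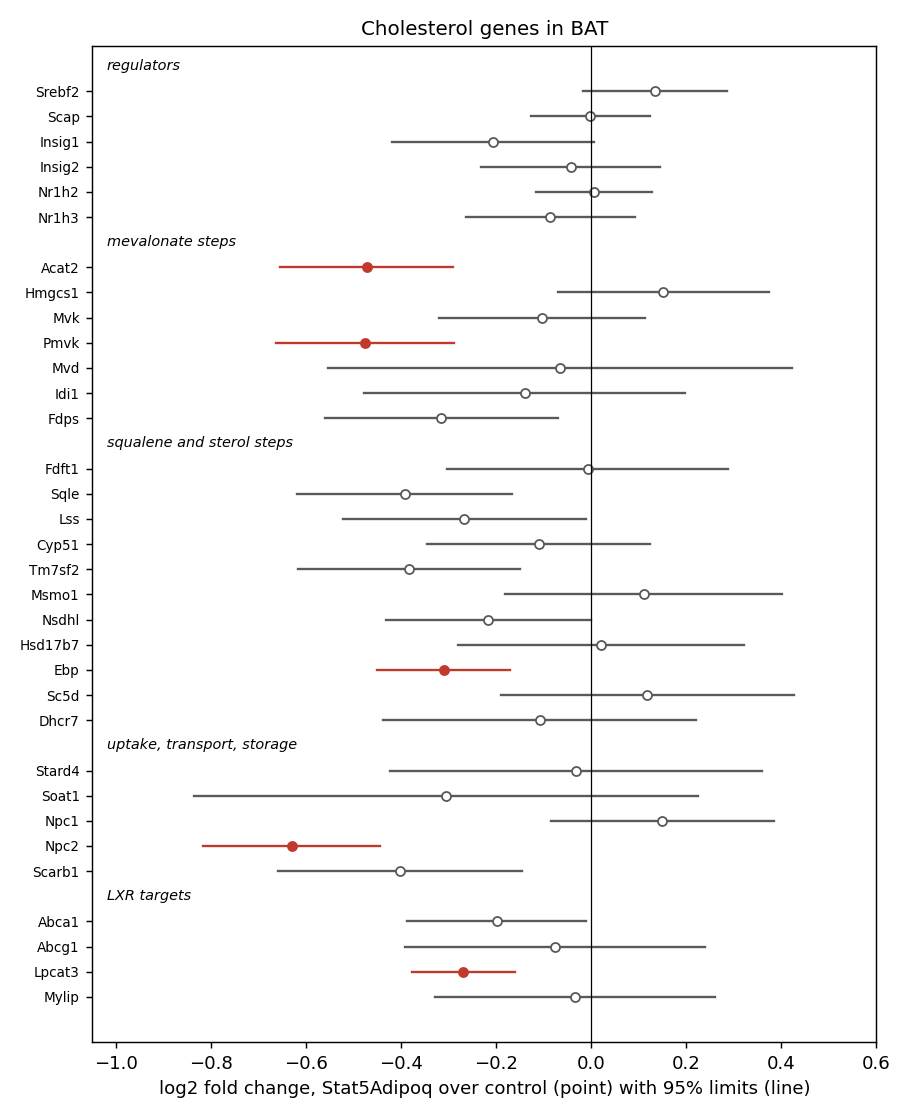
Log2 fold change of each of the 33 cholesterol genes in Stat5Adipoq over control BAT (x axis; points, with 95% limits as lines), ordered by role, with called genes as filled red points. The 5 called genes lie between -0.63 (Npc2) and -0.27 (Lpcat3), the 6 regulators between -0.21 and 0.13, and the highest gene, Hmgcs1, lies at 0.15.

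The 150 bases before the start of 6 genes, as the promoter table places it, are shown to set the called genes beside Hmgcs1, the synthesis gene with the highest fold change and a known SREBP target. They were taken from RefSeq promoters on GRCm38.p6 and are written 5′ to 3′ on the strand of the gene. Capitals mark matches, on either strand, to 3 motifs. These are the sterol response element of the SREBPs (TCACNCCAC), the CCAAT box of the factor NF-Y, which is known to act beside SREBPs, and the STAT5 consensus (TTCNNNGAA). The CCAAT box appears as ATTGG where it lies on the other strand. The stretches are chr13:119690201-119690350 (plus strand) for Hmgcs1, chr17:12960726-12960875 (minus) for Acat2, chr3:89454391-89454540 (plus, the first of 2 windows) for Pmvk, chrX:8193513-8193662 (minus) for Ebp, chr12:84773113-84773262 (minus) for Npc2 and chr6:124662954-124663103 (plus) for Lpcat3.
Hmgcs1: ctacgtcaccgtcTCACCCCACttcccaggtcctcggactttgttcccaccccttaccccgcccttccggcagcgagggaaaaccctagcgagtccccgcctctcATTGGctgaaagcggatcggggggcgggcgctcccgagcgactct
Acat2: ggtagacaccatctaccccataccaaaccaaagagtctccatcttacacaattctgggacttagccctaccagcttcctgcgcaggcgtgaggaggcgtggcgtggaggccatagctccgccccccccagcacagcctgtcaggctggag
Pmvk: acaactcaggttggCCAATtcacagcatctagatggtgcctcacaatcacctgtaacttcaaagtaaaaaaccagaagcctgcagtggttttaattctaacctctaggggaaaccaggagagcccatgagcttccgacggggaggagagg
Ebp: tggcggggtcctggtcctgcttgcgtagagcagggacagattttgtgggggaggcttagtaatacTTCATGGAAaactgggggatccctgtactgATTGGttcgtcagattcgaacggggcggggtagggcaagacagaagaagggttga
Npc2: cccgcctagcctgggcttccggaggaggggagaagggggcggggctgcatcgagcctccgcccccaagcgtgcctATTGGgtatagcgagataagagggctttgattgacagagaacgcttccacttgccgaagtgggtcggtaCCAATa
Lpcat3: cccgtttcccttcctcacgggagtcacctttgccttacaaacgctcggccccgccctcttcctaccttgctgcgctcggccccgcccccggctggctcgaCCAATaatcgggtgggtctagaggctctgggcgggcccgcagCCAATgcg
Hmgcs1 holds a sterol response element that begins 137 bases before the start and a CCAAT box at 45. Pmvk holds a CCAAT box at 136, Npc2 at 75 and 6, Lpcat3 at 50 and 8, and Ebp at 55, and Acat2 holds no match in this stretch. The outer limit of Lpcat3 given below lies upstream of the start in the promoter table, so that its CCAAT box at 8 falls inside the gene. Ebp also holds a STAT5 consensus at 85.

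Of the 33 genes, 26 had a promoter in the table, 17 of them SREBP2 targets. The table also holds genes outside the 13568 tested here, while all members were tested, so its shares are over an unlike set. In the 250 bases before the start, the CCAAT box was found in 21 of 26 members (80.8%) and in 16 of 17 SREBP2 targets (94.1%), against 37.5% of 27025 genes of the table. It was in 4 of the 5 called members and in 17 of 21 members that were not called (81.0%). The STAT5 consensus was found in 1 member, Ebp (3.85%), against 8.13% of all genes of the table, and the sterol response element in 1 member, Hmgcs1, against 1.22%. These are matches of letters in a short window and say nothing of binding.

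None of the 6 regulators was called, and their fold changes had a median of -0.02. Srebf2, which encodes SREBP2, was at 58.6, 55.7, 58.4, 58.5 and 58.1 CPM in control replicates 1 to 5 and at 55.8, 58.3, 63.3, 68.7 and 71.7 CPM in Stat5Adipoq replicates 1 to 5. Stat5Adipoq replicates 3 to 5 lay above all controls and replicates 1 and 2 did not, and the log2 fold change was 0.13 (95% limits -0.02 to 0.29, adjusted p = 0.399). Scap, the escort of SREBP2, was at 79.8, 83.4, 80.2, 78.2 and 78.3 CPM in control and at 79.6, 73.5, 76.5, 89.6 and 80.4 CPM in Stat5Adipoq BAT. Its log2 fold change was -0.0016 with limits of -0.13 and 0.12.

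Insig1, which retains the SCAP complex in the endoplasmic reticulum and is itself an SREBP target, was at 256, 289.5, 244, 243 and 346 CPM in control replicates 1 to 5 and at 226, 229, 228, 241 and 269.8 CPM in Stat5Adipoq replicates 1 to 5. Stat5Adipoq replicates 1 to 4 lay below all controls and replicate 5 did not, and the log2 fold change was -0.21 (limits -0.42 to 0.0050, adjusted p = 0.343). Insig2, its relative, was at 38.6, 45.1, 54.4, 42.3 and 38.9 CPM in control and at 41.2, 42.6, 41.1, 44.3 and 43.2 CPM in Stat5Adipoq BAT. The Stat5Adipoq values all lay inside the control range (log2 fold change -0.04, limits -0.23 to 0.15).

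Nr1h2, which encodes LXRβ, was at 88.3, 84.7, 75.6, 79.3 and 79.0 CPM in control and at 78.9, 78.4, 81.2, 86.8 and 83.4 CPM in Stat5Adipoq BAT, with a log2 fold change of 0.0056 (limits -0.12 to 0.13). Nr1h3, which encodes LXRα, was at 94.7, 98.4, 115, 100.7 and 85.0 CPM and at 92.1, 80.7, 93.9, 98.3 and 99.8 CPM, with -0.09 (limits -0.26 to 0.09). The genotypes overlapped for both receptors.

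Of the 7 genes that lead from acetyl-CoA to farnesyl diphosphate, Acat2 and Pmvk fell and 5 were not called. Acat2 (Entrez gene 110460, chr17:12943042-12960725) encodes the cytosolic thiolase that joins acetyl-CoA units at the first step. It was at 177, 208, 177, 169.8 and 232 CPM in control replicates 1 to 5 and at 135, 145, 132, 144 and 139 CPM in Stat5Adipoq replicates 1 to 5. Every Stat5Adipoq library was below every control, and the Stat5Adipoq libraries were closer to each other than the controls were, with 193 ± 26.3 CPM against 139 ± 5.53 CPM (SD, n = 5). The log2 fold change was -0.47 (SE 0.08, adjusted p = 0.0111), or 72.1% of the control level. Of the 50-base words in Acat2 exons, 45.9% occur elsewhere among the exons of the annotation, mostly in the neighbouring paralog Acat3. Acat3 was counted at 1.05 to 2.22 CPM in control and 0.22 to 0.67 CPM in Stat5Adipoq BAT and fell as well (log2 fold change -1.73, adjusted p = 0.0144), and how the reads of the pair were divided is uncertain.

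Pmvk (Entrez gene 68603, chr3:89454541-89469014) encodes phosphomevalonate kinase, which adds the phosphate to mevalonate phosphate. It was at 107, 132, 121, 141 and 147 CPM in control replicates 1 to 5 and at 85.8, 99.5, 93.3, 101 and 87.0 CPM in Stat5Adipoq replicates 1 to 5. The lowest control was just above the highest Stat5Adipoq library. The log2 fold change was -0.48 (SE 0.09, adjusted p = 0.0123), or 71.9% of control. Both genes had an exact permutation p of 0.0079, the smallest that 5 libraries against 5 can give. This p is unadjusted, and groups that do not overlap always give it. Here and below it therefore only restates that the libraries were separated. Both genes were called in each of 8 other settings and with each library left out.

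The other 5 enzymes of these steps were not called. Hmgcs1, the cytosolic HMG-CoA synthase and a sensitive SREBP2 target, ranged from 334 to 466 CPM in control and from 349 to 500.6 CPM in Stat5Adipoq BAT (log2 fold change 0.15, limits -0.07 to 0.37). Mvk, the kinase one step before Pmvk, ranged from 20.7 to 30.5 and from 22.7 to 26.9 CPM (-0.10, limits -0.32 to 0.11). Mvd, the decarboxylase one step after it, ranged from 8.23 to 17.2 and from 8.65 to 14.9 CPM and varied most among the members in control BAT, with a coefficient of variation of 33.4% (-0.07, limits -0.55 to 0.42). Pmvk therefore fell between neighbours in the pathway that were not called, and the difference between these genes was not tested.

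Idi1, the isomerase of the isoprenoid units, was low, at 3.01 to 4.20 and 2.63 to 3.75 CPM (-0.14, limits -0.48 to 0.20), and shares 21.3% of its 50-base words with other genes. Fdps, farnesyl diphosphate synthase, was at 32.8 to 50.0 CPM in control and 29.8 to 40.7 CPM in Stat5Adipoq BAT (-0.32, limits -0.56 to -0.07, adjusted p = 0.192). It was called when control replicate 1, the lowest control, was left out (adjusted p = 0.0442). Its value is uncertain in either case, because 77.4% of its exon bases lie under a second gene on the same strand, Gm43738.

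Of the 11 genes from squalene to cholesterol, Ebp fell and 10 were not called. Ebp (Entrez gene 13595, chrX:8185329-8193512) encodes the isomerase that moves a double bond in the sterol ring late in the pathway. It was at 27.6, 30.1, 26.8, 29.8 and 28.5 CPM in control replicates 1 to 5 and at 24.1, 21.99, 22.3, 25.2 and 21.8 CPM in Stat5Adipoq replicates 1 to 5. The groups did not overlap, although the lowest control and the highest Stat5Adipoq library were close. The log2 fold change was -0.31 (SE 0.06, adjusted p = 0.0261), or 80.6% of control. The call was lost when any of control replicates 1, 2 and 4 or Stat5Adipoq replicates 2, 3 and 5 was left out, with adjusted p between 0.0504 and 0.0752, and the log2 fold change then stayed between -0.32 and -0.29.

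Tm7sf2, a sterol reductase, was at 9.67, 13.9, 12.4, 10.3 and 11.1 CPM in control and at 8.13, 9.04, 8.68, 9.25 and 8.79 CPM in Stat5Adipoq BAT. Its libraries did not overlap, yet it was not called (log2 fold change -0.38, adjusted p = 0.0896, exact permutation p = 0.0079). Sqle, the squalene epoxidase and an early control point of the sterol branch, was at 35.1, 43.3, 38.6, 37.0 and 46.0 CPM in control and at 29.7, 27.9, 29.1, 38.6 and 27.5 CPM in Stat5Adipoq BAT. Stat5Adipoq replicate 4 was the library inside the control range, and the other Stat5Adipoq libraries lay below all controls. The log2 fold change was -0.39 with an adjusted p of 0.0720 in edgeR and 0.0141 in DESeq2, and edgeR called it without Stat5Adipoq replicate 4 (-0.49, adjusted p = 0.0193).

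Scap, Hmgcs1, Idi1 and Fdft1 share between 10.7% and 20.9% of their exon bases with a gene on the other strand (Ctsb in the case of Fdft1), and as the strand setting of the counting is not given, reads there cannot be assigned with certainty.

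The remaining 8 genes of this stretch overlapped between the genotypes. Lss, the lanosterol synthase, ranged from 73.5 to 114 and from 62.6 to 78.3 CPM (log2 fold change -0.27, adjusted p = 0.305), and Nsdhl, a sterol dehydrogenase, from 96.2 to 132 and from 84.3 to 113 CPM (-0.22, adjusted p = 0.327). Fdft1 (squalene synthase), Cyp51 (the lanosterol demethylase), Hsd17b7 (a sterol ketone reductase) and Dhcr7 (the last reductase of one branch) had log2 fold changes of -0.0071, -0.11, 0.02 and -0.11. Msmo1 (sterol methyl oxidase) and Sc5d (sterol desaturase) were at 0.11 and 0.12. The 95% limits of these 6 genes ran from -0.44 to 0.43 in all. Those of Cyp51 and Dhcr7 reach below the -0.31 of Ebp, and those of the other 4 do not.

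**Figure D2:**
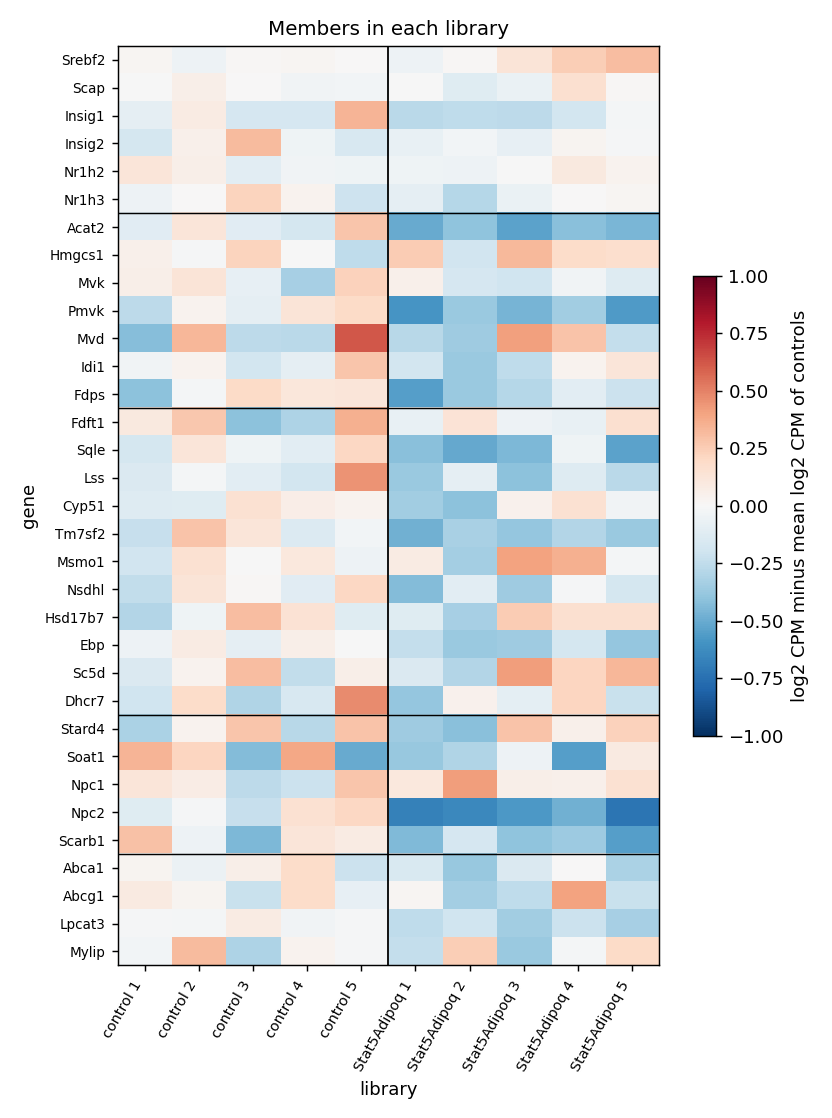
Log2 CPM of the 33 genes (rows, grouped by role in the order regulators, mevalonate steps, squalene and sterol steps, uptake, transport and storage, LXR targets) in each of the 10 libraries (columns), relative to the mean of the 5 controls. Red is above and blue below the control mean. Npc2, Acat2 and Pmvk are blue in all 5 Stat5Adipoq libraries, as are other called genes (Ebp and Lpcat3) and genes not called (Insig1, Tm7sf2 and Lss among them). Control replicate 5 is the highest control for 14 of the 33 genes.

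Among the 5 genes of uptake, transport and storage, Npc2 fell and 4 were not called. Npc2 (Entrez gene 67963, chr12:84754559-84773112) encodes the soluble protein that binds cholesterol released from lipoproteins in the lysosome and hands it to the membrane protein NPC1. It was at 406, 437, 375, 490.3 and 509.5 CPM in control replicates 1 to 5 and at 275, 281, 295, 315 and 266 CPM in Stat5Adipoq replicates 1 to 5. The lowest control was well above the highest Stat5Adipoq library. Levels averaged 444 ± 56.2 and 287 ± 19.3 CPM (SD, n = 5), and the log2 fold change of -0.63 (SE 0.09, adjusted p = 0.00249, exact permutation p = 0.0079) was the lowest of the 33 members. It was called in all 8 other settings and with each library left out. Per length it was also the most highly expressed member in control BAT, at 135 CPM per kb of exon, before Hmgcs1 (115), Insig1 (102), Acat2 (77.4) and Pmvk (75.7).

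Its partner Npc1 ranged from 86.2 to 126 CPM in control and from 107 to 138 CPM in Stat5Adipoq BAT, with a log2 fold change of 0.15 (limits -0.08 to 0.38). Of the lysosomal export pair, Npc2 was called and Npc1, with limits on both sides of 0, was not. The difference between the 2 genes was not tested. Macrophages have many lysosomes, and their 8 markers summed to overlapping ranges in both genotypes. Of these markers 0 were called, 1 was lower at an unadjusted p under 0.05 and 7 had a fold change below 0, the direction of Npc2, with a median log2 fold change of -0.13. The part of such cells in the level of Npc2 was not tested.

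Scarb1, the receptor that takes up cholesterol esters from high density lipoprotein, was at 69.1 to 116 CPM in control and 64.4 to 84.1 CPM in Stat5Adipoq BAT (log2 fold change -0.40, adjusted p = 0.105 in edgeR and 0.0257 in DESeq2). Its lowest control was replicate 3, the library with muscle and liver transcripts, and without it the log2 fold change was -0.50 (adjusted p = 0.00813). Without that library edgeR called 6 members lower, the 5 named above and Scarb1. Stard4, a cytosolic sterol carrier, was at 5.84 to 8.95 and 5.45 to 8.96 CPM (-0.03, limits -0.42 to 0.36). Soat1, which esterifies cholesterol for storage, was the lowest member per length at 0.25 CPM per kb, with 1.37 to 2.68 and 1.32 to 2.16 CPM (-0.31, limits -0.84 to 0.23). Soat1 averaged 23.6 counts per library, and its limits lie on both sides of 0.

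Of the 4 LXR targets, Lpcat3 fell and 3 were not called. Lpcat3 (Entrez gene 14792, chr6:124663094-124704716) encodes the acyltransferase that places polyunsaturated fatty acids into membrane phospholipids. It was at 118, 117, 126, 116 and 118 CPM in control replicates 1 to 5 and at 99.7, 104, 93.8, 103 and 94.7 CPM in Stat5Adipoq replicates 1 to 5. The groups did not overlap and the spread within each was small, with 119 ± 3.87 and 98.9 ± 4.47 CPM (SD, n = 5). The log2 fold change was -0.27 (SE 0.05, adjusted p = 0.0144, exact permutation p = 0.0079), or 83.0% of control, and the call held with each library left out.

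Abca1, the pump that passes cholesterol to lipid-poor apolipoprotein, was at 243, 229, 249, 271 and 205 CPM in control and at 214, 183, 216, 239 and 191 CPM in Stat5Adipoq BAT. The groups overlapped, and the log2 fold change was -0.20 (limits -0.39 to -0.0099, adjusted p = 0.303). Abcg1, the pump for efflux to mature lipoprotein, was at 9.86, 9.44, 7.94, 10.6 and 8.77 CPM and at 9.39, 7.31, 7.76, 12.3 and 7.91 CPM (-0.08, limits -0.39 to 0.24). Mylip, a ubiquitin ligase that sends lipoprotein receptors to degradation, was at 21.4, 27.1, 17.6, 22.3 and 21.7 CPM and at 18.4, 25.8, 16.8, 21.5 and 24.8 CPM (-0.03, limits -0.33 to 0.26). The genotypes overlapped for both genes.

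**Figure D3:**
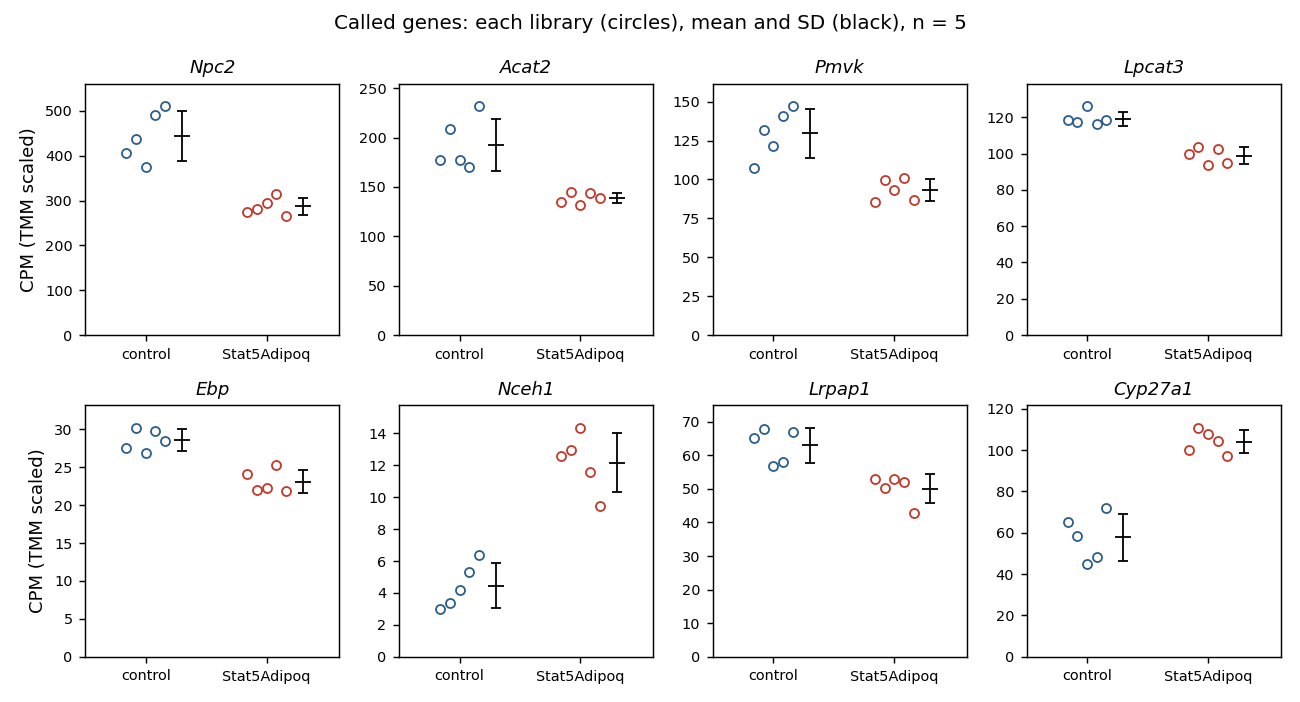
CPM (TMM scaled, y axis from 0) of the 5 called members and the 3 called genes of the wider pathway in each control (blue circles) and Stat5Adipoq (red circles) library, with mean and SD in black (n = 5). In each panel the genotypes do not overlap; Npc2, Acat2, Pmvk, Lpcat3, Ebp and Lrpap1 are lower and Nceh1 and Cyp27a1 higher in Stat5Adipoq BAT.

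SREBP2 targets, which include the enzymes of synthesis, and LXR targets, which include the efflux pumps, were then set side by side. Of 22 SREBP2 targets, 3 fell (Acat2, Pmvk and Ebp), 0 rose and 16 had a fold change below 0. Of 4 LXR targets, 1 fell, 0 rose and all 4 were below 0. Among all 13568 tested genes, 1.31% were called lower, 1.4% were called higher and 6889 had a fold change below 0. Median log2 fold changes were -0.11 and -0.14, against -0.0028 for all tested genes. Single libraries moved both medians by more than 1.5 times, that of the SREBP2 targets to -0.05 without control replicate 5, -0.16 without control replicate 4 and -0.18 without Stat5Adipoq replicate 4, and that of the LXR targets to -0.23 without Stat5Adipoq replicate 4, with -0.09 at the other end without control replicate 4. The difference of the medians, SREBP2 minus LXR targets, was 0.03, and it ranged from -0.07 to 0.12 when single libraries were left out. Between single libraries of the same genotype this difference had an SD of 0.157, which is not the error of the contrast between genotypes. Both medians were below 0, and whether the groups moved differently was not tested. The 7 members in neither group had a median of -0.09, with Npc2 the 1 that fell.

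In single libraries, the median of the SREBP2 targets relative to the control mean was -0.15, 0.08, -0.06, -0.13 and 0.21 on the log2 scale in control replicates 1 to 5 and -0.28, -0.33, -0.15, 0.0082 and -0.08 in Stat5Adipoq replicates 1 to 5. The genotypes overlapped, and control replicate 5 was the highest. That of the LXR targets was 0.0076, 0.0023, -0.08, 0.11 and -0.04 in control and -0.20, -0.27, -0.30, -0.0096 and -0.27 in Stat5Adipoq BAT. Stat5Adipoq replicate 4 was the highest Stat5Adipoq library for both medians and the one inside the control range of the LXR targets. The medians over all tested genes lay between -0.0082 and 0.0071.

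**Figure D4:**
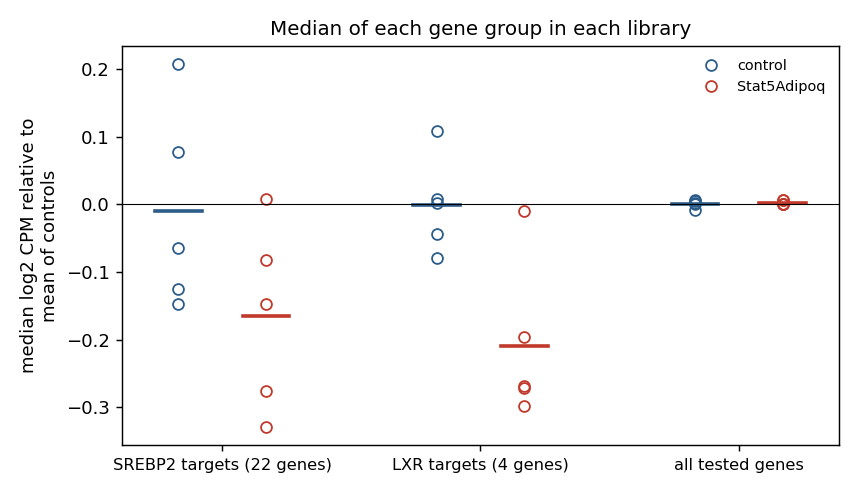
Median log2 CPM relative to the control mean (y axis) of 22 SREBP2 targets, 4 LXR targets and all tested genes, with 1 circle per control (blue) or Stat5Adipoq (red) library and bars at the mean of each genotype. SREBP2 targets range from -0.15 to 0.21 in control and from -0.33 to 0.0082 in Stat5Adipoq BAT, and all tested genes stay within 0.01 of 0.

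The SREBP2 targets varied between mice of the same genotype. Control replicate 5 was the highest control for 13 of the 22 targets and control replicate 1 the lowest for 10. Among Stat5Adipoq libraries, replicate 4 was the highest for 8 targets and replicates 1 and 2 were each the lowest for 8. For Lss, control replicate 5 was at 114 CPM with the other controls at 73.5 to 82.3 CPM. Dhcr7, Mvd and Insig1 were also highest there among all 10 libraries, at 68.6, 17.2 and 346 CPM.

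Genes around the core pathway were taken from 6 further lists of 45 genes, of which 42 were tested. Of these, 2 rose, 1 fell and 39 were not called, where 1.4% of all tested genes were called higher and 1.31% lower. DESeq2 added Gramd1a, a sterol transporter named here after its value was seen, as lower (adjusted p = 0.0259, and 0.0970 in edgeR). None of the 8 genes of sterol sensing and SREBP processing was called (median log2 fold change -0.02), nor any of the 9 tested genes of the isoprenoid branch and late sterol steps (0.05) or the 6 further LXR targets (-0.18). Srebf1, which encodes the fatty acid regulator SREBP1 and is an LXR target, ranged from 399 to 639 CPM in control and from 393 to 471 CPM in Stat5Adipoq BAT (-0.23, adjusted p = 0.380).

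The genes that rose encode an enzyme that breaks down cholesterol esters and an enzyme that makes an oxysterol. Nceh1, the neutral cholesterol ester hydrolase, was at 2.97, 3.36, 4.21, 5.31 and 6.395 CPM in control replicates 1 to 5 and at 12.6, 13.0, 14.3, 11.6 and 9.43 CPM in Stat5Adipoq replicates 1 to 5. Every Stat5Adipoq library was above every control, and the log2 fold change was 1.44 (SE 0.19, adjusted p = 0.00245, exact permutation p = 0.0079), or 2.71-fold. It was 1 of the 11 genes of intracellular sterol movement and ester hydrolysis, and the other 10 were not called. Lipa, the acid hydrolase of the lysosome that acts before NPC2 on incoming esters, was at 0.20 (adjusted p = 0.547).

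Cyp27a1, the mitochondrial hydroxylase that makes an oxysterol able to bind LXR, was at 65.3, 58.3, 44.98, 48.3 and 72.0 CPM in control and at 99.9, 111, 108, 104 and 97.3 CPM in Stat5Adipoq BAT. The groups were far apart, with a log2 fold change of 0.85 (SE 0.11, adjusted p = 0.00245, exact permutation p = 0.0079), or 1.80-fold. The 2 other tested genes of oxysterol synthesis were not called. Of these Cyp7b1, which hydroxylates oxysterols further and is named here after its values were seen, had a log2 fold change of -1.54 (adjusted p = 0.127) and was lower in every Stat5Adipoq library than in every control, at 5.4 counts per library on average. Both Nceh1 and Cyp27a1 were called in all 8 other settings and with each library left out.

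Lrpap1, a chaperone of lipoprotein receptors, was the 1 of 5 genes of the receptor list that fell. It was at 65.1, 67.7, 56.8, 58.0 and 66.9 CPM in control and at 52.8, 50.1, 52.8, 51.9 and 42.8 CPM in Stat5Adipoq BAT (log2 fold change -0.33, adjusted p = 0.0380). The groups did not overlap, with the lowest at Stat5Adipoq replicate 5. Its call was lost in 7 of the 10 fits with a library left out, with adjusted p up to 0.0937, and when libraries were scaled by their totals alone (adjusted p = 0.0561), and it held without control replicate 3, control replicate 4 or Stat5Adipoq replicate 1.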

How the data were processed

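BAT RNA from 5 control and 5 Stat5Adipoq mice was sequenced as stranded mRNA libraries with single reads of 50 bases. Per the methods and processing notes, the authors aligned reads to GRCm38 with STAR 2.5.0b and counted them over exons with featureCounts 1.5.0-p1; the strand setting is not given in the sources used here. The deposited values are raw counts per gene, listed by Entrez identifier and not normalized. The authors' tables of their own comparison, which hold log2 fold changes and p-values, served only to match symbols to identifiers.

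Genes were kept where counts divided by size factors summed to more than 45. Genotypes were compared with edgeR 4.0.16 (quasi-likelihood F test, TMM, no covariate) in R 4.3.3, with p-values adjusted by Benjamini-Hochberg over all 13568 tested genes. DESeq2 1.42.0, limma 3.58.1 (voom), other scalings and filters, a replicate block and the omission of each library were alternatives. For genes with library values, log2 CPM was compared between genotypes by exact permutation (two-sided). For members that overlapped, this unadjusted permutation p was 0.024 for Sqle, 0.079 for Insig1, 0.087 for Abca1 and 0.127 for Srebf2. It ran from 0.349 (Nr1h3) to 0.960 (Scap) for Scap, Insig2, Nr1h2, Nr1h3, Abcg1 and Mylip. The 33 members and all gene lists were chosen with earlier results of these data known, so no list was tested as a whole. Library values are given for called and non-overlapping members, regulators, LXR targets and the 3 SREBP2 targets with the largest fold changes. Other genes are named from the wider lists where called, and Lipa, Srebf1, Acat3, Cyp7b1 and Gramd1a were added after their values were seen. Positions are those of RefSeq on GRCm38.p6. Levels per kb use exon lengths of coding transcripts in GENCODE, and shared 50-base words were counted in the same annotation. No libraries of the same genotype differed by as little as sampling noise.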

Additional observations from a re-analysis of the deposited data

Results flagged for a closer look

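In groups of 5 libraries, a library whose gap to its nearest neighbour exceeded 0.71 of the range of the group was picked out. Of the 72 groups of the named genes, 6 held such a library, where chance gives about 1 in 20, or 3.6. Srebf2 was at 55.7 CPM in control replicate 2 and at 58.1 to 58.6 CPM in the other controls. Sqle was at 38.6 CPM in Stat5Adipoq replicate 4 and at 27.5 to 29.7 CPM in the other Stat5Adipoq libraries. Lss was at 113.8 CPM in control replicate 5 and at 73.5 to 82.3 CPM in the other controls. Npc1 was at 137.9 CPM in Stat5Adipoq replicate 2 and at 107 to 115 CPM in the others of that genotype. Lpcat3 was at 125.9 CPM in control replicate 3, the library with muscle and liver transcripts, and at 116 to 118 CPM in the other controls. Lrpap1 was at 42.8 CPM in Stat5Adipoq replicate 5 and at 50.1 to 52.8 CPM in the others.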

How the results depend on the processing

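Acat2, Pmvk, Npc2, Nceh1 and Cyp27a1 were called in every alternative run. Of 162 repeats of the counts and medians of the groups, 146 stayed within 1.5 times of the reported count or, for medians and their difference, within 1 SD between libraries, and 16 moved further. Those that moved were all counts. The SD is that of single libraries, a wide allowance for medians of fold changes over all libraries. The medians still shifted by over 1.5 times, from -0.18 to -0.05 for SREBP2 targets and from -0.23 to -0.09 for LXR targets with single libraries left out. Their difference, 0.0281 in the main fit, then ranged from -0.072 to 0.1207 and so changed sign. Of 648 repeats of single genes 590 kept direction and call, 17 lost the call, 5 gained it and 36 changed sign, all of the last in genes that were not called. DESeq2 called 334 genes lower and 326 higher in place of 178 and 190. Leaving out single libraries gave 86 to 224 genes lower and 96 to 219 higher, with the counts lower by over 1.5 times without control replicate 1, 2 or 4 or Stat5Adipoq replicate 3, 4 or 5. Members called lower then numbered 4 to 6 and members called higher stayed at 0. Among genes near 0, the log2 fold change of Fdft1 was 0.021 with limma-voom, that of Hsd17b7 was -0.0069 with limma-voom and -4e-04 with library totals alone, and that of Nr1h2 was -0.017 with library totals alone. With single libraries left out, the log2 fold change ranged from -0.0451 to 0.0271 for Scap, -0.085 to 0.0417 for Insig2, -0.19 to 0.12 for Mvd, -0.096 to 0.0856 for Fdft1, -0.0471 to 0.10 for Hsd17b7, -0.19 to 0.0282 for Dhcr7, -0.12 to 0.0607 for Stard4, -0.0193 to 0.0361 for Nr1h2 and -0.11 to 0.051 for Mylip. The causes of these shifts were not tested.

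Replicates share numbers across genotypes without a stated link. Correlations between the deviations of libraries with the same number ran from -0.23 to 0.09, and 2 of 5 controls matched best with their own number, so the numbers did not pair the mice. With the replicate block, 3 members (Acat2, Pmvk and Npc2) and 0 LXR targets were called lower, Lpcat3 had an adjusted p of 0.0655 Ebp of 0.0695 and Lrpap1 of 0.107, and the log2 fold change of Fdft1 was 0.0154.

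Soat1 and Idi1 averaged 23.6 and 39.6 counts per library, and their 95% limits reach -0.84 and -0.48. Those of Mvd and Fdps, at 133.4 and 479.7 counts, reach -0.55 and -0.56. Whether depth or variation between mice sets the width of these limits was not tested.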
